A study of Mus musculus with 58 samples.

Results

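The nuclear-encoded genes of oxidative phosphorylation (OXPHOS) were taken by name from a table of 15171 genes. They are the genes outside the mitochondrial chromosome whose symbol starts with Nduf, Uqcr or Atp5, is Sdha, Sdhb, Sdhc, Sdhd or Cycs, or is Cox4, Cox5, Cox6, Cox7 or Cox8 followed by a letter, with pseudogene symbols left out. 89 of the 15171 genes met the rule, which reads symbols and chromosomes and no expression value. They hold 7 core subunits, 29 accessory subunits and 8 assembly factors of complex I, 3 subunits of complex II, 7 of complex III, cytochrome c (Cycs), 15 subunits of complex IV with 2 related genes, and 15 subunits of complex V with 2 related genes. Sdhd and Uqcr11 were not analysed here.

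RNA was sequenced from the cortex and hippocampus at the injury site of 58 mice, combined into 1 tissue sample per mouse. All mice were on the C57BL/6 background, were 3 months old at surgery, included both sexes, and had the mouse Apoe gene replaced by human APOE3 or APOE4. They carried either 2 functional copies of Abca1, the transporter that loads lipid onto APOE (E3/Abca1+/+ and E4/Abca1+/+), or 1 copy (E3/Abca1+/- and E4/Abca1+/-), a loss that was not limited to a cell type. Mice had a craniotomy and then either a controlled cortical impact (TBI) or no impact (sham), and tissue was taken 14 days later. The groups were 8 E3/Abca1+/+ sham, 8 E3/Abca1+/+ TBI, 7 E3/Abca1+/- sham, 6 E3/Abca1+/- TBI, 7 E4/Abca1+/+ sham, 7 E4/Abca1+/+ TBI, 7 E4/Abca1+/- sham and 8 E4/Abca1+/- TBI mice.

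Complexes I and II take electrons from NADH and succinate, complex III and cytochrome c pass them on, and complex IV hands them to oxygen. Complexes I, III and IV pump protons across the inner mitochondrial membrane, and complex V, the ATP synthase, uses the gradient to make ATP. A small number of core subunits are encoded in mitochondrial DNA and the rest in the nucleus, and neurons rely on the pathway to restore ion gradients after firing.

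Depth differed between the Abca1 genotypes. No source used here names the sequencing runs, so a difference between runs and the Abca1 genotype cannot be told apart, which bears on each Abca1+/- value. The total gene count had a median of 8350000 in the 30 Abca1+/+ mice and 18870000 in the 28 Abca1+/- mice, with extremes of 4421308 and 37877346. Abca1 itself was lower in Abca1+/- mice over the 4 strata of isoform and injury (log2 fold change -0.42, adjusted p = 0.000816, edgeR). Within strata it passed in E3 sham mice (-0.44, adjusted p = 0.00943) and did not in E3 TBI (-0.71, adjusted p = 0.117), E4 sham (-0.35, adjusted p = 0.08) or E4 TBI mice (-0.19, adjusted p = 0.718). Summed markers of neurons ran from 10130 to 14790 CPM (counts scaled to a common library size by TMM), so every sample held brain tissue, and those of choroid plexus ran from 10 to 2057 CPM.

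OXPHOS genes were expressed far above most genes, over a wide range. On a scale of CPM per kb of transcript, which allows genes to be compared, their median level was 74.3 against 8.4 over all genes. The highest level was that of Atp5b, the catalytic beta subunit of the ATP synthase, at 602.5, and the lowest that of Atp5l, subunit g of its membrane part, at 1.29, a range of 467-fold. Spread between mice of a group was small, with a median coefficient of variation of 7.68% (3.11% to 43.6%).

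By role, complex I core subunits had a median level of 75.03 CPM per kb, with Ndufs3 the lowest at 40.08. Accessory subunits had a median level of 74.28, from Ndufab1, the mitochondrial acyl carrier protein, at 1.839 to Ndufb9 at 180.6. Assembly factors, which build complex I and are not part of it, were lower, with a median level of 15.08 between Ndufaf6 at 4.314 and Ndufaf5 at 23.31. In complex II the level ran from the membrane anchor Sdhc at 24.88 to the flavoprotein Sdha, which oxidizes succinate, at 159.2. Complex III ran from the Rieske iron-sulfur protein Uqcrfs1 at 74.07 to the hinge protein Uqcrh at 237.3, and complex IV from Cox4i2 at 1.608 to Cox4i1 at 510.1. The related genes and Cycs were low, with Cycs at 4.11, Atp5s at 10.31, Atp5sl at 15.46 and Ndufa4l2 at 1.683, apart from Cox7a2l at 66.49.

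**Figure D1:**
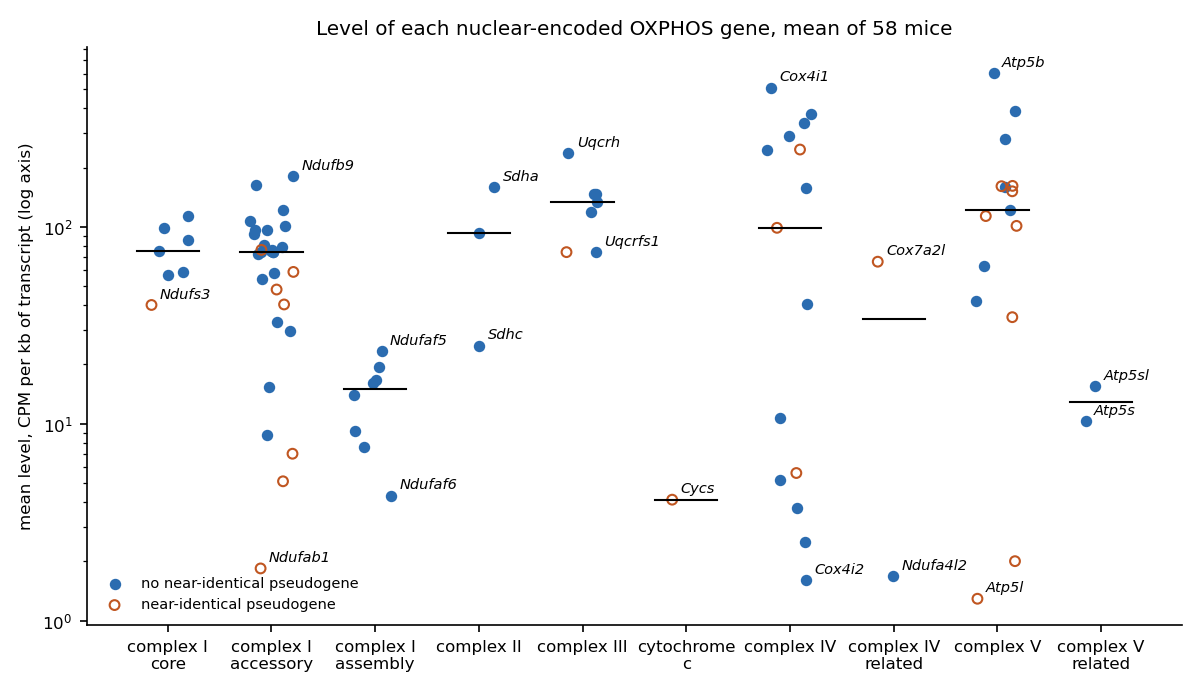
Mean level over 58 mice (vertical axis, CPM per kb of transcript, log scale) of each of the 89 genes, by role; bars are role medians and open circles are genes with a near-identical pseudogene. Subunits of complexes I to V mostly lie between 20 and 600, assembly factors lie lower, and a group under 10 includes Cycs, Ndufab1, Cox4i2 and Atp5l.

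Near-identical copies of a gene elsewhere in the genome can take reads away from it. 22 genes had a pseudogene transcript matching at 95% or more over at least 100 bases, with a median level of 53.5 CPM per kb, and 67 had none, with a median of 75. Of the 16 genes under 10 CPM per kb, 7 had a copy, Atp5l and Cycs among them. The levels of genes with copies are uncertain, and the part of the copies was not tested.

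Where a subunit has tissue-specific versions, 1 version made up most of the set on the per-length scale. Cox4i1 held 99.7% of the COX4 pair over Cox4i2, the hypoxia-linked version, Cox6a1 98.3% of its pair over Cox6a2, the heart and muscle version, and Cox6b1 98.5% over Cox6b2, the testis version. The mean levels of Cox4i2, Cox6a2 and Cox6b2 were 1.17, 3.5 and 1.74 CPM. Ndufa4, a complex IV subunit, held 99.6% over Ndufa4l2. The COX7A set also holds Cox7a2l, a related gene and not a tissue-specific version, at 83.5%, with Cox7a2 at 13.4% and the muscle version Cox7a1 at 3.15%. Of the 3 genes that encode the same mature c-ring protein of complex V, Atp5g3 held 88.4%, Atp5g1 11% and Atp5g2 0.634%. Pseudogene copies cover 100% of the Atp5g2 and 69% of the Atp5g1 transcript. They also cover 31.2% of the Cox7a2l and 24% of the Cox7b transcript. Cox7b and Cox8a had no other version in the table and stood at 98.9 and 185 CPM.

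The summed share of the 89 genes in each library differed with Abca1 genotype more than with injury or isoform. Over all mice the share ran from 0.7863% to 1.008% of counts, and complex V alone gave a median of 0.318%. It was 0.837% ± 0.0402 (SD, n = 30) in Abca1+/+ and 0.905% ± 0.0362 (SD, n = 28) in Abca1+/- mice, with overlapping ranges of 0.7863% to 0.9674% and 0.827% to 1.008%. Averaged over strata the difference was 0.0665 percentage points, 1.73 times the SD within groups. TBI minus sham was -0.0115 points (-0.3 SD) and APOE4 minus APOE3 0.0178 points (0.46 SD). In bulk tissue, fewer cells of a type and less RNA per cell cannot be told apart, here and below.

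The 13 protein genes of mitochondrial DNA, which code for the other subunits of the same complexes, differed the opposite way. Their share had a median of 2.978% in Abca1+/+ (2.449% to 3.626%) and 2.447% in Abca1+/- mice (2.129% to 3.194%). By edgeR 11 of the 13 were lower in Abca1+/- mice and 0 higher, against 8.39% and 9.49% of all genes. Their median log2 fold change was -0.367. The complex I subunits ND4 (-0.35, adjusted p = 1.69e-11) and ND5 (-0.39, adjusted p = 4.85e-11) had the smallest p-values. With TBI 0 were higher and 0 lower, against 29.0% and 24.3% of all genes. With APOE4 only ATP8 was lower (-0.64, SE 0.2158, adjusted p = 0.0339), against 6.99% of all genes. Its mean level was low, 3.85 CPM against 2310 CPM for ND4.

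**Figure D2:**
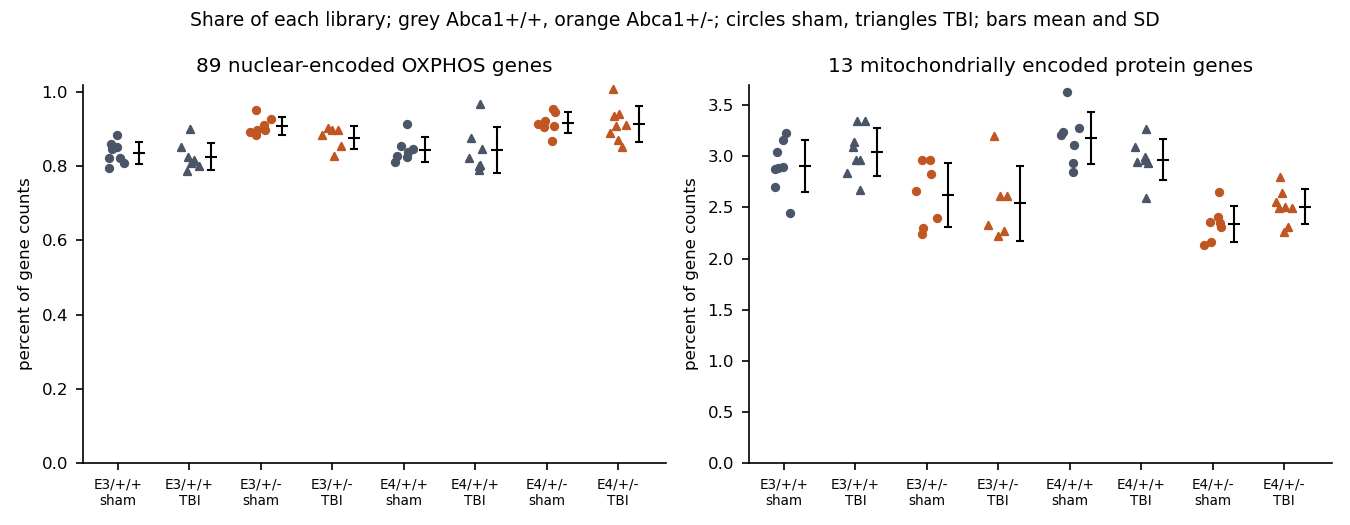
Percent of gene counts per mouse (vertical axes, from 0) for the nuclear-encoded set and the 13 mitochondrially encoded genes in the 8 groups; points are mice, bars mean and SD. Abca1+/- groups lie higher for the nuclear-encoded set (medians 0.904% against 0.8242%) and lower for the mitochondrially encoded genes, with overlap.

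The first comparison asked how injury changed these genes. The catalytic subunit Atp5b, the NADH-binding subunit Ndufv1 and Cycs fell by 8.82%, 8.01% and 7.57%, while the low-level complex IV versions Cox6b2 and Cox4i2 rose. Averaged over the 4 genotypes, 24 of 89 OXPHOS genes were lower and 6 higher with TBI (edgeR quasi-likelihood test, Benjamini-Hochberg adjusted p under 0.05 over all genes). Of all genes 24.3% were lower and 29.0% higher, so the share of OXPHOS genes that were lower was near the background and the share that were higher below it. Their median log2 fold change was -0.03 against 0.012 over all genes.

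Ordered by role, the core subunits of complex I had a median log2 fold change of -0.099, with Ndufv1, Ndufs1 and Ndufs3 among those lower. Of the accessory subunits 5 of 29 were lower and 2 higher, and of the assembly factors 3 of 8 were lower. In complex II Sdha was lower and Sdhc higher. In complex III 3 of 7 were lower, namely Uqcrc1, Uqcrc2 and Uqcrfs1. In complex IV 2 were lower and 2 higher of 15, and in complex V 4 lower and 1 higher of 15.

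Atp5b had the smallest p-value among OXPHOS genes. In the 29 sham mice its level was 1120 CPM at the lowest, 1200 at the median and 1330 at the highest, and in the 29 TBI mice it was 946, 1100 and 1300. The sham levels sat higher but the ranges overlapped. The change was log2 fold change -0.13, SE 0.0172, adjusted p = 2.12e-09. By genotype it was -0.17, adjusted p = 0.00322 in E3/Abca1+/+, -0.14, adjusted p = 0.00306 in E3/Abca1+/-, -0.19, adjusted p = 0.00052 in E4/Abca1+/- and, short of the threshold, -0.08, adjusted p = 0.349 in E4/Abca1+/+ mice. Atp5a1, the alpha subunit that forms the catalytic ring with it, had levels of 921, 986 and 1050 CPM in sham and 831, 948 and 1020 CPM in TBI mice, and changed by -0.08, adjusted p = 2.36e-05.

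In complex I, Ndufv1, which binds NADH, had levels of 155, 171 and 191 CPM in sham and 135, 159 and 184 CPM in TBI mice. TBI mice lay lower with overlap, and the change was log2 fold change -0.12, SE 0.0225, adjusted p = 8.49e-06. Ndufs1, the largest iron-sulfur subunit, had levels of 133, 153 and 168 CPM in sham and 119, 141 and 164 CPM in TBI mice (-0.10, adjusted p = 2.97e-05). Ndufs3 (-0.11, adjusted p = 0.00539) and the assembly factor Ndufaf5 (-0.11, adjusted p = 0.00158) were of like size. The core subunits Ndufs7 (-0.03, adjusted p = 0.502), Ndufs8 (-0.03, adjusted p = 0.408) and Ndufv2 (-0.03, adjusted p = 0.39) did not pass.

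Sdha had levels of 439, 466 and 502 CPM in sham and 410, 453 and 490 CPM in TBI mice (-0.05, adjusted p = 0.000898), while Sdhb, its iron-sulfur partner, gave -0.02, adjusted p = 0.602. Cycs had levels of 10.6, 13.8 and 17 CPM in sham and 8.62, 12.3 and 14.8 CPM in TBI mice (-0.11, adjusted p = 0.0405), with overlap, and has pseudogene copies. In complex IV, Cox5a changed by -0.12, adjusted p = 0.00128 and Cox6a2 by -0.25, adjusted p = 0.0113. Atp5c1, the gamma subunit of the rotor, gave -0.04, adjusted p = 0.0982.

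Cox6b2 rose most. Its level was 0.393 CPM at the lowest, 1.31 at the median and 2.1 at the highest in sham mice, and 1.2, 2.23 and 3.65 CPM in TBI mice, where a mouse held 3 to 97 reads over both groups. The upper sham mice overlapped the lower TBI mice, and the change was log2 fold change 0.72, SE 0.104, adjusted p = 4.27e-08. It was 0.89, adjusted p = 0.00247 in E3/Abca1+/+, 0.70, adjusted p = 0.00197 in E3/Abca1+/-, 1.02, adjusted p = 0.00647 in E4/Abca1+/- and, short of the threshold, 0.21, adjusted p = 0.555 in E4/Abca1+/+ mice. Cox4i2 rose by 0.31, adjusted p = 0.0262, from levels of 0.248, 1.05 and 1.98 to 0.423, 1.3 and 2.04 CPM. Atp5e (0.08), Ndufa2 (0.08), Ndufa7 (0.07) and Sdhc (0.06) rose by little on the log2 scale, and with a covariate for transcript length Atp5e, Ndufa2 and Ndufa7 had the opposite sign. Without 1 E4/Abca1+/+ TBI mouse that stood apart, these 4 no longer passed (0.064, 0.052, 0.045 and 0.035). In that fit 33 OXPHOS genes were lower, and the shares of all genes moved to 27.0% higher and 27.5% lower, from 29.0% and 24.3%. With all mice and without mitochondrial genes they were 26.0% and 28.6%.

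**Figure D3:**
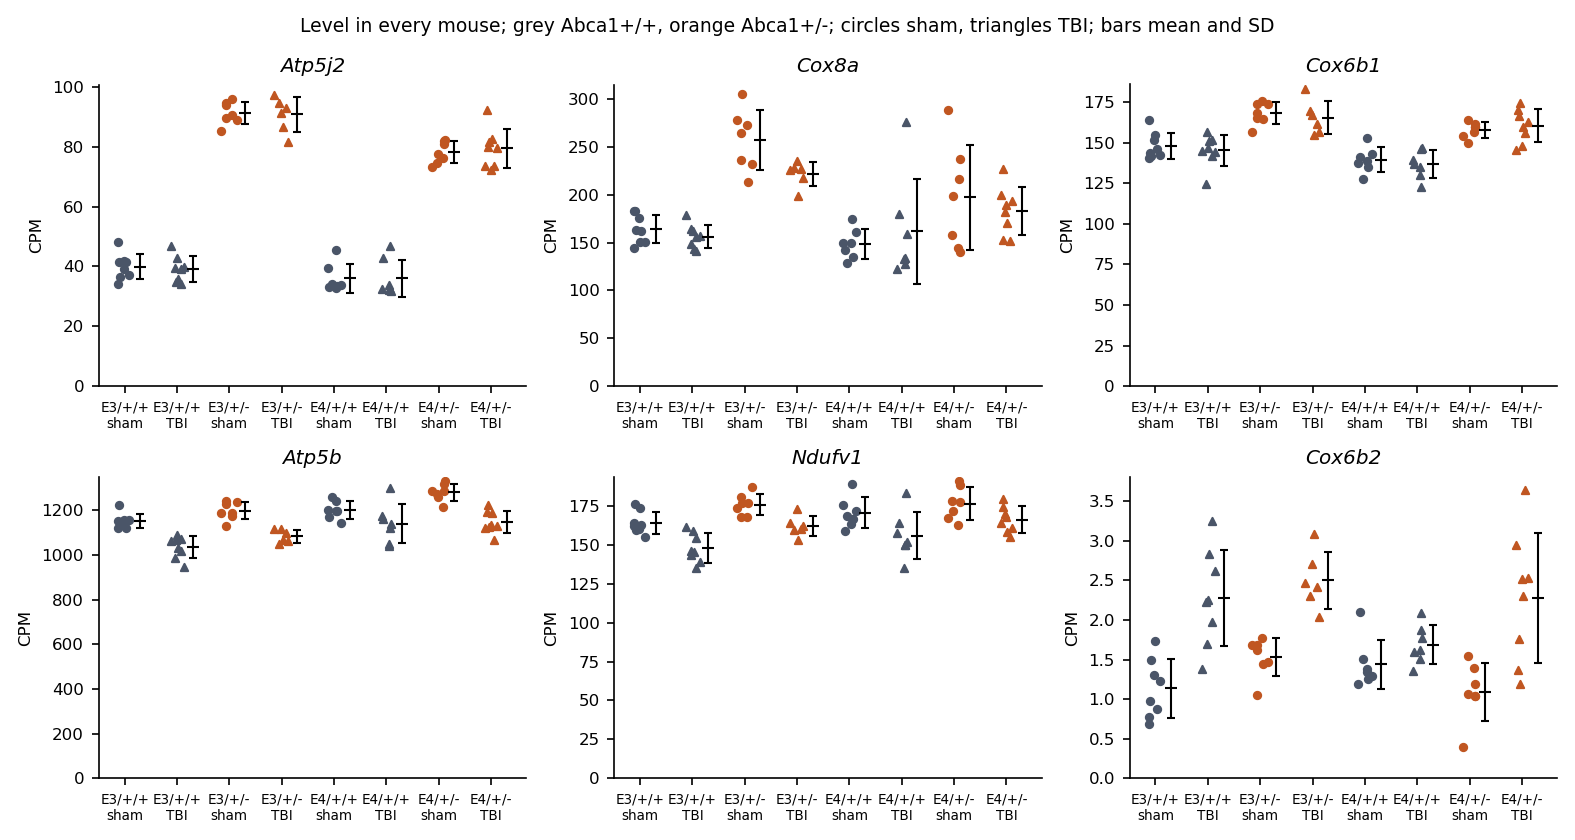
Level in CPM (vertical axes, from 0) of 6 genes in every mouse by group; points are mice, bars mean and SD. Atp5j2 separates Abca1+/- from Abca1+/+ mice in all strata, Atp5b and Ndufv1 lie slightly lower with TBI, and Cox6b2 lies higher with overlap.

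Within genotypes, in E3/Abca1+/+ mice 2 of 86 were lower and 1 higher, over a background of 10.9% and 12.3%. In E3/Abca1+/- mice 10 of 89 were lower and 1 higher, over a background of 10% (1508 of 15026 genes) and 13.4%, in E4/Abca1+/- mice 5 of 89 were lower and 1 higher, over a background of 16.4% and 17.7%, and in E4/Abca1+/+ mice 0 of 86 were lower and 0 higher, over a background of 4.87% and 8.82%. In that last genotype 9 of 86 members had an unadjusted p under 0.05 in edgeR. The largest of these, 0.0473 for Ndufa5, ranked 3685 of 14041 genes by p, so many other genes lay under 0.05 as well. DESeq2 called 1 member, over 9.77% of all genes higher and 6.06% lower. Without 1 TBI mouse of that genotype that stood apart for Cox8a and Atp5d, 4 were lower and 0 higher, over 4.84% and 9.16% of all genes. The differences in response were tested directly: 0 of 89 members passed for injury by Abca1, over a background of 0%, with 0 at an unadjusted p under 0.05, and 0 passed for injury by isoform, over 0.00659%, with 1. DESeq2 called 0 and 0.

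Cell markers and transcript length moved with injury. Of 12 neuronal markers 11 were lower (median -0.203), while 12 of 12 microglial and 8 of 8 astrocyte markers were higher. Of all genes 24.3% were lower and 29.0% higher. Summed microglial markers ran from 415.9 to 689.6 CPM in sham and from 811.1 to 1997 CPM in TBI mice. The slope of log2 CPM on log2 transcript length in each library had a median of 0.0255 in sham and -0.0243 in TBI mice. The part of the cell markers in the changes was not tested.

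OXPHOS transcripts are short, with a median of 780 bases against 2799 over all genes. Of the OXPHOS genes from 1000 to under 2000 bases 46.2% were lower with TBI, against 14.5% of other genes of that length. Other genes under 1000 bases had a median TBI change of 0.077 and 8.84% lower, and the 55 OXPHOS genes of that length -0.012 and 10.9%. With the slope as a covariate 60 were lower, 22 of the 24 among them, and 2 higher, while 20.1% of all genes were lower and 24.6% higher in that fit.

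**Figure D4:**
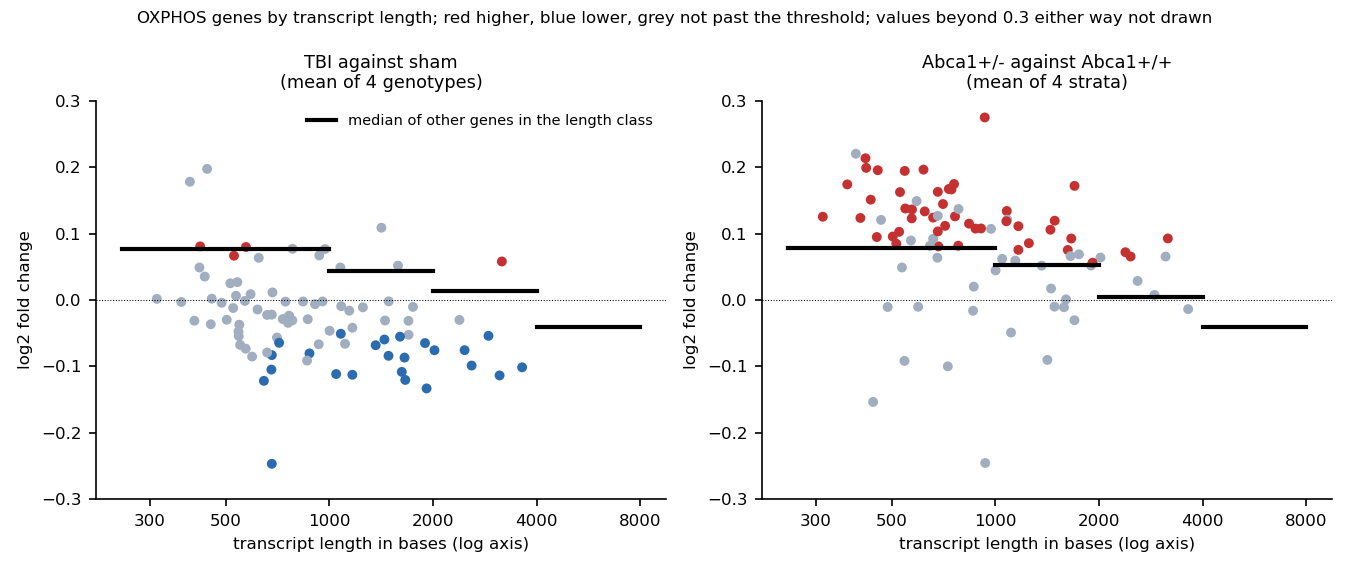
Log2 fold change of OXPHOS genes (vertical axis) against transcript length in bases (horizontal axis, log scale) with TBI and in Abca1+/- mice; red higher, blue lower, grey not past the threshold, values beyond 0.3 not drawn. Black bars are medians of other genes by length class; most OXPHOS genes lie below the bars with TBI, and more lie above than below them for Abca1+/-.

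The second comparison asked what the loss of 1 Abca1 copy changed. Atp5j2 was over 2-fold higher in every Abca1+/- group, and many genes were slightly higher. Over the 4 strata 49 of 89 OXPHOS genes were higher and 1 lower in Abca1+/- mice, against 9.49% higher and 8.39% lower of all genes. The median change was 0.095 on the log2 scale against 0.003. With the slope of expression on transcript length as a covariate 9 were higher and 3 lower, over 1.67% and 1.84% of all genes in that fit, and the median was 0.023. Without the covariate and by role, 21 of 29 accessory and 4 of 7 core subunits of complex I, 3 of 7 of complex III, 6 of 15 of complex IV and 10 of 15 of complex V were higher. Cycs gave 0.07, adjusted p = 0.372.

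Atp5j2, subunit f in the membrane part of the ATP synthase, had the smallest p-value of all genes in this comparison. Its level was 31.8 CPM at the lowest, 36.8 at the median and 48.1 at the highest in Abca1+/+ mice and 72.1, 82.5 and 97.4 CPM in Abca1+/- mice. No mouse of 1 genotype overlapped with the other. In E3 mice the lowest, median and highest were 34, 40.3 and 48.1 CPM in Abca1+/+ sham and 85.1, 90.5 and 96.1 CPM in Abca1+/- sham mice. In E4 mice they were 32.9, 33.7 and 45.6 and 73.2, 77.5 and 82.4 CPM. The change was log2 fold change 1.17, SE 0.0361, adjusted p = 1.99e-33, and by stratum 1.20 in E3 sham, 1.21 in E3 TBI, 1.14 in E4 sham and 1.13 in E4 TBI mice, each past the threshold. It gave -0.0021, adjusted p = 0.969 with TBI. The Abca1 deletion and any other difference between the Abca1+/+ and Abca1+/- mice cannot be told apart for this gene.

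In complex IV, Cox8a had levels of 122, 153 and 276 CPM in Abca1+/+ and 140, 217 and 305 CPM in Abca1+/- mice, with overlap. The change was log2 fold change 0.44, SE 0.0614, adjusted p = 3.41e-07. It passed in E3 sham (0.65, adjusted p = 0.000109) and E3 TBI mice (0.51, adjusted p = 0.000255) and not in E4 sham (0.42, adjusted p = 0.138) or E4 TBI mice (0.17, adjusted p = 0.602). In the last stratum 1 Abca1+/+ mouse stood at 276 CPM, and without it the value was 0.35, adjusted p = 0.0902. Of the 89 members 0 passed for isoform by Abca1, a test added after seeing the data, over a background of 0.0659%. DESeq2 called 1, over 0.172% of all genes higher and 0.597% lower. At an unadjusted p under 0.05 there were 12 members, and the share of all genes at that level is not given here.

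Cox6b1, which bridges the complex IV dimer, had levels of 123, 143 and 164 CPM in Abca1+/+ and 146, 162 and 183 CPM in Abca1+/- mice, with overlap (log2 fold change 0.20, SE 0.0218, adjusted p = 1.26e-09). Cox4i1, its largest nuclear-encoded subunit, had levels of 329, 355 and 429 and 370, 402 and 453 CPM (0.17, adjusted p = 7.99e-08). The complex I subunits Ndufs4 (0.17, adjusted p = 4.01e-07), Ndufa11 (0.19, adjusted p = 1.04e-06) and Ndufb5 (0.13, adjusted p = 3.20e-06) and the ATP synthase epsilon subunit Atp5e (0.20, adjusted p = 6.96e-07) were higher. Cox7c was the single lower gene, at 1.87, 3.27 and 6.65 CPM in Abca1+/+ and 1.43, 2.49 and 4.08 CPM in Abca1+/- mice (log2 fold change -0.47, SE 0.108, adjusted p = 0.00116). Its pseudogene copies cover 35.6% of its transcript.

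By stratum, in E3 sham mice 20 of 89 were higher and 0 lower, over a background of 1.63% and 0.886%. In E3 TBI mice 3 of 89 were higher and 0 lower, over a background of 0.0869% and 0.0935%, in E4 sham mice 5 of 88 were higher and 0 lower, over a background of 0.373% and 0.617%, and in E4 TBI mice 2 of 88 were higher and 0 lower, over a background of 0.559% and 0.909%. The median changes were 0.105, 0.094, 0.082 and 0.089 in the same order, and with the length slope as a covariate 0.045, 0.064, 0.023 and -0.06, the last below 0.

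Length and depth moved with Abca1 genotype as well. The length slope had a median of 0.0229 in Abca1+/+ and -0.0207 in Abca1+/- mice. Other genes under 1000 bases had a median change of 0.079 with 26.7% higher, and OXPHOS genes of that length 0.123 with 63.6%. With the slope as a covariate Atp5j2 (1.06, adjusted p = 1.12e-30), Cox6b1 (0.15, adjusted p = 6.05e-05), Cox8a (0.27, adjusted p = 0.00736) and Cox7c (-0.56, adjusted p = 0.00735) still passed. With log2 total count as a covariate 35 were higher and 0 lower, over 7.13% and 6.67% of all genes. Of 12 neuronal markers 0 passed, and 6 of 12 microglial markers were higher, over 8.39% lower and 9.49% higher of all genes in the fit without a covariate. The part of these markers was not tested.

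Promoters are shown for the gene that separated the Abca1 genotypes (Atp5j2), for a pair of genes higher in Abca1+/- mice (Cox6b1, Ndufa11) and for the electron carrier and the catalytic subunit that fell with TBI (Cycs, Atp5b). Each is the 150 bases before the start in RefSeq, build GRCm38.p6, 5′ to 3′ on the strand of the gene. They lie at chr5:145191542-145191691 on the minus strand (Atp5j2), chr7:30626115-30626264 on the minus strand (Cox6b1), chr17:56717612-56717761 on the plus strand (Ndufa11), chr6:50566570-50566719 on the minus strand (Cycs) and chr10:128083157-128083306 on the plus strand (Atp5b). Capitals mark the motif CCGGAAG of ETS factors, read on the opposite strand, in Cox6b1, and GCGCATGC of NRF1, on both strands with overlap in Ndufa11 and on the opposite strand in Cycs. No searched motif lies in the bases shown for Atp5j2 and Atp5b. The motif AAGATGGC of YY1, also searched, lies at position 24 after the Atp5j2 start, outside the bases shown. The Atp5j2 bases lie within the GENCODE span of the gene, chr5:145183698-145192062, which begins upstream of the RefSeq start. The last bases shown for Cox6b1, with its ETS motif, and for Atp5b also lie within GENCODE spans. These are chr7:30616861-30626151 and chr10:128083273-128090391.
Atp5j2: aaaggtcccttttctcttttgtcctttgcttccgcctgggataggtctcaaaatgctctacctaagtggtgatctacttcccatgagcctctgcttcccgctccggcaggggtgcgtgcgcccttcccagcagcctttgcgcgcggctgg
Cox6b1: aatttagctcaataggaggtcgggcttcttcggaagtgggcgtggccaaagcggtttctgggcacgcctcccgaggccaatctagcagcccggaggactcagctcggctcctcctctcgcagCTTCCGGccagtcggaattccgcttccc
Ndufa11: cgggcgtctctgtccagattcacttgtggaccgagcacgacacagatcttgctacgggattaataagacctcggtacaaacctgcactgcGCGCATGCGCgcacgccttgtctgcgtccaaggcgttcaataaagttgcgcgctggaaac
Cycs: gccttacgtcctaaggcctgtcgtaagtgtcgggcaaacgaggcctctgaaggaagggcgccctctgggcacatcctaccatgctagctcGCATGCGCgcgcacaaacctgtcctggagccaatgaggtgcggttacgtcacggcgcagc
Atp5b: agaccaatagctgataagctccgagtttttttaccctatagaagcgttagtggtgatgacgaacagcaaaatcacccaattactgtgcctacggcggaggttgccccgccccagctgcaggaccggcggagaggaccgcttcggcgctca

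ETS factors (with GABP among them), NRF1, YY1 and estrogen-related receptors (ERR) are known regulators of nuclear mitochondrial genes. In windows from 250 bases before to 50 after the start, on both strands, GCGCATGC was found in 12 of 74 OXPHOS genes (16.2%) against 3.05% of genes. CCGGAAG was found in 16 of 74 OXPHOS genes (21.6%) against 9.93% of genes, the YY1 motif AAGATGGC in 12 of 74 OXPHOS genes (16.2%) against 3.19% of genes, and the ERR motif AAGGTCA in 7 of 74 OXPHOS genes (9.46%) against 5.38% of genes. At least 1 was present in 38 (51.4%) against 19.7% of 27025 genes. These are all genes with a RefSeq window, also those outside the 15171 analysed, and other expressed genes were not compared on their own. These matches describe letters and not binding.

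The third comparison set APOE4 against APOE3 mice, and changes were small and of both signs. Averaged over the 4 strata 8 of 89 were higher and 15 lower with APOE4, against 8.03% and 6.99% of all genes, with a median of -0.006 against 0.002. Accessory subunits of complex I had 1 higher and 7 lower of 29. Atp5b had levels of 946, 1120 and 1240 CPM in APOE3 and 1040, 1190 and 1330 CPM in APOE4 mice, with overlap (log2 fold change 0.10, SE 0.0172, adjusted p = 5.61e-05). Ndufs1 had 119, 142 and 155 CPM and 134, 154 and 168 CPM (0.10, adjusted p = 0.000233).

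Also higher with APOE4 were the complex III subunit Uqcrb (0.13, adjusted p = 0.000451), the complex I assembly factor Ndufaf1 (0.14, adjusted p = 0.000866), Ndufa9 (0.09, adjusted p = 0.00311), Sdha (0.05) and Atp5a1 (0.05). Lower were Atp5j2 (-0.18, adjusted p = 0.000358), the complex I accessory subunits Ndufc1 (-0.15, adjusted p = 0.000534), Ndufb6 (-0.13, adjusted p = 0.0012), Ndufa8 (-0.24) and Ndufa13 (-0.08), and Cox6b1 (-0.08), Atp5e (-0.10) and Cox7a2 (-0.23). The slope of log2 CPM on GC content in each library had a median of 0.00349 in APOE3 and -0.0027 in APOE4 mice, and with it as a covariate, chosen after seeing the data, 12 members were higher and 3 lower, sharing 7 and 3 with the calls above, over 5.61% and 4.42% of all genes.

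**Figure D5:**
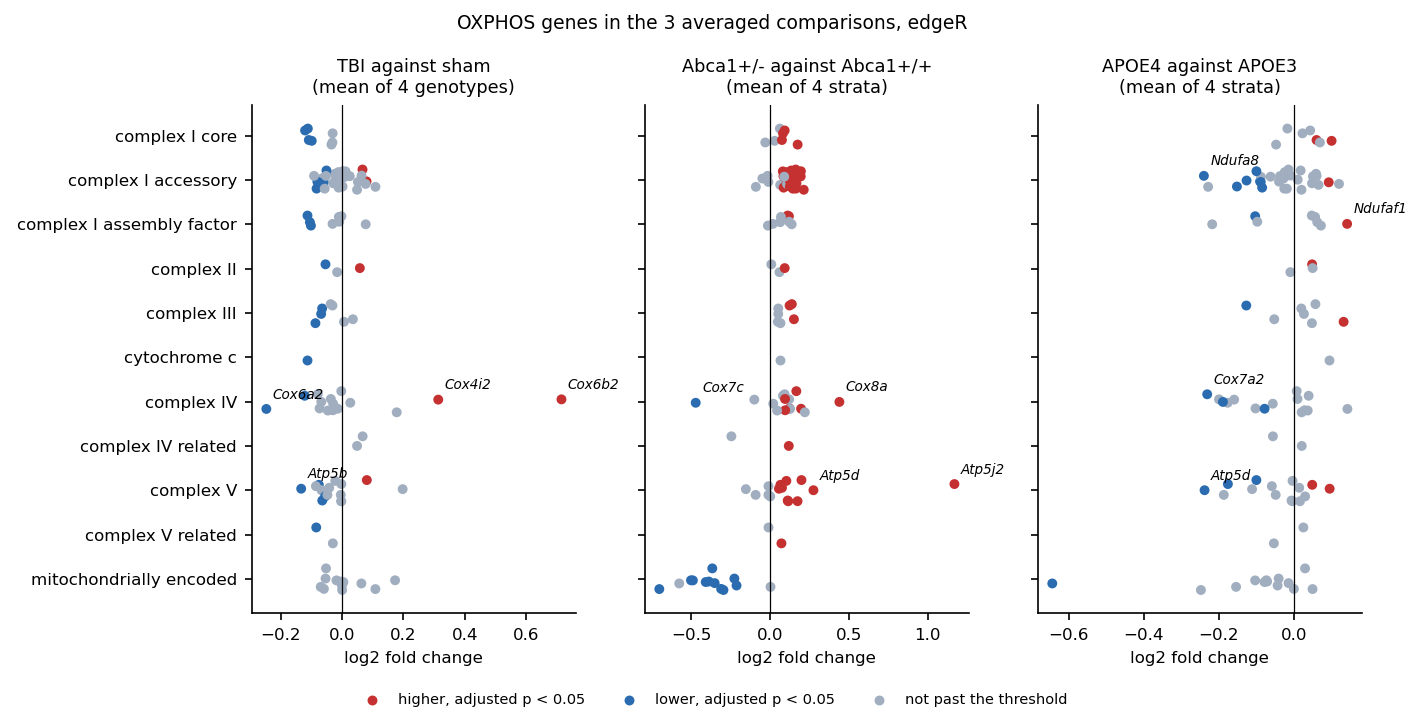
Log2 fold change (horizontal axes) of the 89 members and the 13 mitochondrially encoded genes by role in the 3 averaged comparisons; each point is a gene, red higher, blue lower and grey not past the threshold in edgeR. Most points lie close to 0; Cox6b2 and Cox4i2 stand out with TBI, and Atp5j2 in Abca1+/- mice, where the mitochondrially encoded genes lie below 0 except 1.

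Other genes of mitochondrial energy metabolism are given as lists. With TBI the background over all genes was 24.3% lower and 29.0% higher. With TBI the tricarboxylic acid cycle had 11 lower and 2 higher of 17 with a median of -0.076. Idh3a (-0.15, adjusted p = 7.40e-07) fell, and Idh2 (0.52, adjusted p = 2.79e-12) and Suclg2 (0.48, adjusted p = 8.26e-09) rose. Glycolysis had 12 lower and 2 higher of 19, with neuronal enolase Eno2 lower (-0.22, adjusted p = 1.97e-15) and hexokinase Hk2 higher (1.06, adjusted p = 2.46e-20). Regulators of mitochondrial biogenesis had 4 lower and 1 higher of 13, the coactivators Ppargc1a (-0.24, adjusted p = 5.02e-09) and Ppargc1b (-0.48, adjusted p = 1.18e-08) being lower and Gabpa higher (0.19, adjusted p = 1.12e-06). Outer membrane and import genes had 7 lower and 0 higher of 15, among them the channel Vdac1 (-0.07, adjusted p = 0.000355), and assembly factors outside the name rule 9 lower and 4 higher of 36. The lower shares of the biogenesis regulators and of these assembly factors were near that background.

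In Abca1+/- mice the tricarboxylic acid cycle had 1 lower and 4 higher of 17, glycolysis 0 lower and 5 higher of 19, outer membrane and import 0 lower and 6 higher of 15, other assembly factors 0 lower and 9 higher of 36 and other subunits 0 lower and 2 higher of 4. The background over all genes was 8.39% lower and 9.49% higher. Calls in this fit went with transcript length. Of other genes under 1000 bases 26.7% were higher, and of those of 4000 bases or more 18.7% were lower. With the length slope as a covariate 1.67% of all genes were higher and 1.84% lower, and these lists are not given for that fit. The glycolytic enzyme Tpi1 (0.11, adjusted p = 2.11e-05) and the carrier Slc25a4 (0.11, adjusted p = 7.27e-05) were higher. Ppargc1a was lower (-0.16, adjusted p = 0.000127), as was the receptor Esrrg (-0.17, adjusted p = 0.0184). With APOE4 the same lists had 0 lower and 4 higher of 17, 3 lower and 0 higher of 19, 0 lower and 3 higher of 15, 2 lower and 4 higher of 36 and 1 lower and 0 higher of 4. The background there was 6.99% lower and 8.03% higher. Lyrm7, an assembly factor of complex III, was higher (0.47, adjusted p = 3.72e-05) and Uqcc2, another, lower (-0.18, adjusted p = 5.27e-07).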

How the data were processed

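Gene counts of 58 mice in 8 groups were analysed. The authors deposited whole-number read counts per gene, not normalized; the submitters' processing notes name Subread 1.5.0, featureCounts, edgeR and the build mm10. The handling of reads that map to several places is not given in the sources used here. Of 15173 lines 2 were blank and removed, 23 symbols turned into dates were restored from identifiers, and 0 sample columns were unmapped. Groups came from the sample titles.

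Counts were scaled by TMM, filtered with filterByExpr in each fit and compared by the quasi-likelihood test of edgeR 4.0.16 (R 4.3.3), with p-values adjusted by Benjamini-Hochberg over all genes tested. Comparisons within 1 genotype or stratum used only those mice, and averaged contrasts and interactions used all 58. The p-values measure the spread between mice. The fits were tested on simulated counts with log2 changes of 0.5 or 1, in either direction, planted in 200 genes. Of the changes of 0.5, 82% (lower) and 88% (higher) were called for TBI in E3/Abca1+/-, and 96% to 100% in the averaged comparisons. Smaller changes, as most of those reported here, and a trend with transcript length were not simulated. Lengths are of the shortest principal transcript in GENCODE M21 (GRCm38), found for 15012 genes; copies were sought with blastn 2.17.0. The length and GC slopes used log2(CPM + 1) of genes with a mean of 1 CPM or more.

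Named genes are the paralog sets, up to 8 genes of smallest p per direction in each averaged comparison, the highest and lowest of each role, core and catalytic subunits, up to 2 genes per list and direction, and Abca1; some genes that the rule names are not reported here. Members and lists were chosen with earlier results of these data known. Alternatives were DESeq2 1.42.0 size factors and Wald test, no filter, at least 10 counts in every mouse, sex, total count, length or GC slope as a covariate, thinning, no mitochondrial genes, a single fit, and leaving out each of 4 mice. The GC slope, the isoform by Abca1 test and the leaving out of E4/Abca1+/+ TBI mouse 2 and E3/Abca1+/+ TBI mouse 3 were added after seeing the data.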

Additional observations from a re-analysis of the deposited data

Results flagged for a closer look

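In 9 of 112 group values tested, 1 mouse lay far from the others of its group, which chance gives in about 1 group in 20. Mouse 2 of the E4/Abca1+/+ TBI group was highest for Cox8a at 276 CPM (next 180, group median 134) and for Atp5d, the delta subunit of the ATP synthase, at 69.7 CPM (next 35, median 33.4). Without it, the averaged change in Abca1+/- mice was 0.49 for Cox8a (adjusted p = 6.51e-10, against 0.44 with it) and 0.33 for Atp5d (adjusted p = 8.92e-05, against 0.28). Mouse 3 of the E3/Abca1+/+ TBI group was lowest for Cox6b1 at 124 CPM (next 142) and for Atp5d at 24.1 CPM (next 33.3). The OXPHOS share of counts was highest in mouse 4 of the E4/Abca1+/+ sham group at 0.912% (next 0.854%). Cox7c was highest in 1 E4/Abca1+/+ sham mouse at 6.65 CPM (next 3.31). Cox6b2 was highest in 1 E4/Abca1+/+ sham mouse at 2.1 CPM (next 1.51). Atp5b was highest in 1 E3/Abca1+/+ sham mouse at 1220 CPM (next 1160). Cox4i2 was highest in 1 E4/Abca1+/- sham mouse at 1.33 CPM (next 0.909). The causes were not tested.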

How the results depend on the processing

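Atp5j2 kept its direction and its call in Abca1+/- mice under every alternative run, from 1.06 to 1.199 on the log2 scale. Of the values of named genes under the alternatives, 467 kept direction and call, 44 lost the call and 3 changed sign, the last with the length slope in the averaged TBI comparison: Atp5e (-0.013), Ndufa2 (-0.023), Ndufa7 (-0.023). Numbers of OXPHOS genes called that moved over 1.5-fold follow, both directions together. The share of all genes called moved as well under many of these settings, and is given after each as higher and lower. Counts thinned to the lowest total gave 1 (TBI in E3/Abca1+/-), 1 (TBI in E4/Abca1+/-), 4 (Abca1+/- in E3 sham), 1 (Abca1+/- in E4 sham), 1 (Abca1+/- in E4 TBI), 10 (TBI averaged), 25 (Abca1+/- averaged) and 5 (APOE4 averaged). Of all genes 17.6% were then higher and 16.9% lower (TBI averaged), 2.34% and 3.01% (Abca1+/- averaged), and 2.12% and 1.98% (APOE4 averaged). The shares were 3.70% and 3.30% (TBI in E3/Abca1+/-) and 7.70% and 6.22% (TBI in E4/Abca1+/-). For Abca1+/- they were 0.137% and 0.0988% (E3 sham), 0.0230% and 0.153% (E4 sham), and 0.0517% and 0.0591% (E4 TBI). The length slope as a covariate gave 9 (TBI in E3/Abca1+/+), 8 (TBI in E4/Abca1+/+), 31 (TBI in E4/Abca1+/-), 2 (Abca1+/- in E3 sham), 1 (Abca1+/- in E4 sham), 1 (Abca1+/- in E4 TBI), 62 (TBI averaged), 12 (Abca1+/- averaged) and 5 (isoform by Abca1). DESeq2's Wald test gave 6 (TBI in E3/Abca1+/+), 1 (TBI in E4/Abca1+/+), 12 (Abca1+/- in E3 TBI), 11 (Abca1+/- in E4 sham), 5 (Abca1+/- in E4 TBI) and 1 (isoform by Abca1). By it 0.664% of all genes were higher and 0.557% lower (Abca1+/- in E3 TBI), 1.52% and 2.14% (E4 sham), and 2.14% and 3.58% (E4 TBI). They were 12.7% and 11.6% (TBI in E3/Abca1+/+), 9.77% and 6.06% (TBI in E4/Abca1+/+), and 0.172% and 0.597% (isoform by Abca1). A single fit over all mice gave 6 (TBI in E3/Abca1+/+), 3 (TBI in E3/Abca1+/-), 2 (TBI in E4/Abca1+/+), 11 (Abca1+/- in E3 sham), 3 (Abca1+/- in E4 sham) and 23 (Abca1+/- in E4 TBI). In the last of these 5.46% of all genes were higher and 3.49% lower in the single fit, against 0.559% and 0.909% in the fit of that stratum. For TBI the single fit gave 14.9% and 11.7% of all genes (E3/Abca1+/+), 12.4% and 7.68% (E3/Abca1+/-), and 10.8% and 6.43% (E4/Abca1+/+). For Abca1+/- it gave 0.896% and 0.692% (E3 sham) and 0.237% and 0.415% (E4 sham). The GC slope, chosen after seeing the data, gave 3 (TBI in E3/Abca1+/-), 3 (TBI in E4/Abca1+/+), 10 (TBI in E4/Abca1+/-), 1 (Abca1+/- in E3 sham), 9 (Abca1+/- in E4 sham) and 15 (APOE4 averaged). With it 11.3% of all genes were higher and 7.27% lower (TBI in E3/Abca1+/-), 8.92% and 5.51% (TBI in E4/Abca1+/+), and 18.0% and 17.4% (TBI in E4/Abca1+/-). They were 0.00686% and 0% (Abca1+/- in E3 sham), 0.699% and 1.01% (Abca1+/- in E4 sham), and 5.61% and 4.42% (APOE4 averaged). Total count as a covariate gave 2 (Abca1+/- in E3 sham) and 1 (Abca1+/- in E4 sham). Sex as a covariate gave 1 (TBI in E4/Abca1+/+). Leaving out E4/Abca1+/- sham mouse 2, highest in microglial markers, gave 3 (Abca1+/- in E4 sham). Leaving out E4/Abca1+/- TBI mouse 8, lowest in hippocampal markers, gave 1 (Abca1+/- in E4 TBI). Leaving out E4/Abca1+/+ TBI mouse 2, chosen after seeing the data, gave 4 (TBI in E4/Abca1+/+). With the length slope the members' median log2 fold change was -0.105 (TBI in E3/Abca1+/+), -0.102 (TBI in E3/Abca1+/-), -0.119 (TBI in E4/Abca1+/+), -0.191 (TBI in E4/Abca1+/-), 0.045 (Abca1+/- in E3 sham), -0.06 (Abca1+/- in E4 TBI), -0.113 (TBI averaged) and 0.023 (Abca1+/- averaged). Without mitochondrial genes 2 were higher and 32 lower with TBI, over 26.0% and 28.6% of all genes. Thinning enters fewer reads by construction; the other causes were not tested. Depth limits the low-level genes such as Cox6b2. No paired analysis was possible because the labels give the groups no shared replicate numbers.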
